A study of Homo sapiens with 12 samples.

Results

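The genes of the MAP kinase cascades and the dual-specificity phosphatases (DUSPs) were followed through an m7G profile of cells labelled THP-1. Members were all regions of the deposited table that overlapped the RefSeq body of a protein-coding gene whose symbol starts with MAPK, MAP2K, MAP3K or MAP4K, or with DUSP and a digit. The rule found 59 of the 9958 regions, at 44 of the 7752 distinct locations, since a peak called in each condition at the same place is listed as a separate region. They lay in 30 of the 78 RefSeq genes that meet the rule, and 32 of them, at 20 locations in 15 genes, held enough reads to be tested. The symbols also bring in genes that only carry the name, such as MAPKAP1, a subunit of the mTORC2 kinase complex.

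MAP kinase cascades pass a signal from the cell surface to the nucleus through kinases that phosphorylate one another in tiers. MAP4Ks and MAP3Ks (ASK1, MLK and MEKK families) receive the stress, cytokine or growth factor signal, MAP2Ks carry it on, and the MAP kinases ERK, JNK and p38 phosphorylate transcription factors and other targets. DUSPs remove the phosphates from MAP kinases, many of them are made in response to the pathway itself, and the phorbol ester PMA, which drives THP-1 cells to an adherent macrophage-like state, works through protein kinase C upstream of ERK.

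The assay was m7G meRIP-seq, in which RNA fragments that carry 7-methylguanosine, the base of the mRNA cap and of some internal sites, are pulled down with an antibody (IP) and sequenced beside RNA taken here as input (IN, from the library names). THP-1, the line named for all 12 libraries, was derived from a monocytic leukemia, and every group had been given 100 ng/ml PMA for 48 h before its polyadenylated RNA was taken. The KD groups (KD IP and KD IN, 3 libraries each) carried a short hairpin against METTL1, the catalytic subunit of an m7G methyltransferase, and the NC groups (NC IP and NC IN, 3 libraries each) were the cells it was set against, wildtype per the design text. Nothing in the labels says that the libraries of a group came from separate cultures, so p-values measure only the spread between these libraries, and the labels name 1 cell line for all of them.

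Peaks at the first bases of a gene are shown first, because 8 of the 15 tested genes had a tested region across the RefSeq gene start, where the cap of a transcript would lie. Each line gives 100 bases before to 30 bases from the gene start on, 5′ to 3′ on the strand of the gene, from RefSeq on GRCh38.p14, and capitals mark the bases inside the called peak.
DUSP2: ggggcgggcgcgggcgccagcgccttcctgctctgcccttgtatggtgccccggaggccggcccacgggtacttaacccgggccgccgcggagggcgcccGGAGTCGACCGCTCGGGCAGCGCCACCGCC
MAP2K1: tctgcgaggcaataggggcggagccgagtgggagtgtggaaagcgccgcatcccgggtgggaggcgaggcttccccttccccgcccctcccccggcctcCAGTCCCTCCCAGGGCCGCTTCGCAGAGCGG
MAP2K7: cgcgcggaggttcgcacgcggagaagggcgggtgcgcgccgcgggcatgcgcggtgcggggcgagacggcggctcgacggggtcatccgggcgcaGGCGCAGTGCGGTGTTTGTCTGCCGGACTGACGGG
MAP3K5: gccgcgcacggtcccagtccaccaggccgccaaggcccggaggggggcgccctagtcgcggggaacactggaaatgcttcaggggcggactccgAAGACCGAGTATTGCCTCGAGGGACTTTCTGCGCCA
MAPK14: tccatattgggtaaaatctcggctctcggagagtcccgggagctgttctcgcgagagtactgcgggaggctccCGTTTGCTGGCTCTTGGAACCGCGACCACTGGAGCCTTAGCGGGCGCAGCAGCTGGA
MAPK3: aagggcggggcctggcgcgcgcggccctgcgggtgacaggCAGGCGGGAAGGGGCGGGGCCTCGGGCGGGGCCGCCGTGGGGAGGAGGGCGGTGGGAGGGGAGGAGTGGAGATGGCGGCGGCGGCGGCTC
MAPK8IP3: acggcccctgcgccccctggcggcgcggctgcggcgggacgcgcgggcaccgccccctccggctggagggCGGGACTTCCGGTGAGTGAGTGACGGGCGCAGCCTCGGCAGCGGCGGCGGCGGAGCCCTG
MAPKAP1: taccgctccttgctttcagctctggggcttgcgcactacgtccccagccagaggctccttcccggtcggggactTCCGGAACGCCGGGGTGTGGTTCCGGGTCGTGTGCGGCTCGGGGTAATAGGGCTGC

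The windows lie at chr2:96145411-96145540 (minus strand) for DUSP2, chr15:66386812-66386941 (plus strand) for MAP2K1, chr19:7903777-7903906 (plus strand) for MAP2K7 and chr6:136793062-136793191 (minus strand) for MAP3K5. Those of the others are chr6:36027708-36027837 (plus strand) for MAPK14, chr16:30123191-30123320 (minus strand) for MAPK3, chr16:1706095-1706224 (plus strand) for MAPK8IP3 and chr9:125707179-125707308 (minus strand) for MAPKAP1. The peak edge lay within 6 bases of the gene start in 4 genes: at the start base itself in DUSP2, 1 base before it in MAP2K1, 5 before in MAP2K7 and 6 before in MAP3K5. It lay 26 bases before in MAPKAP1, 27 in MAPK14, 30 in MAPK8IP3 and 60 in MAPK3. The 8 windows held between 61.5% (MAPK14) and 82.3% (MAPK3 and MAPK8IP3) G and C, against a median of 60% and quartiles of 48.5% and 70.8% over the 35116 RefSeq windows of the same 130 bases. A GC box (GGGCGG, on either strand) was present in 6 of the 8, all but MAPK14 and MAPKAP1, and in 33.7% of all windows. An EGR site (GCGNGGGCG, either strand) was present in DUSP2 and in 5.57% of all windows, and it can share bases with a GC box. An ETS site (CCGGAAG, either strand) was present in MAPK8IP3 and MAPKAP1 and in 7.13% of all windows. A cyclic AMP response element (TGACGTCA) and an AP-1 site (TGANTCA), searched on both strands, were in 0 of the 8 windows and in 1.37% and 3.57% of all windows. DUSP4 was not matched in the promoter table.

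Of all member regions with a known gene strand and only that gene, 28 of 50 (56.0%, exact 95% interval 41.3 to 70.0%) had their midpoint in the first 10% of the gene body, against 33.8% of all such regions of the table. Over distinct locations the shares were 19 of 37 (51.4%, exact 95% interval 34.4 to 68.1%) for members and 31.3% for all. The first interval counts overlapping regions separately, and both take regions of the same gene as independent. The last 10% of the gene body held 18% of the member regions and 27.9% of all. All 50 lay on the strand of their gene as the peak list gives it, as did 98.4% of all regions, but reads of the 2 strands may not have been told apart in counting: 61 of 69 pairs of regions on opposite strands at nearly the same place (overlap of at least 80%) had totals within 1.25 times of each other.

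Depth and identity of the libraries come before the results. Reads in regions summed to between 953727 and 1105477 in KD IN, 907024 and 1052685 in NC IN, 1513492 and 1888972 in KD IP, and 1476384 and 1676625 in NC IP, and these sums are not the sequencing depth. Libraries correlated (log2 of CPM, the counts per 1e6 reads in regions) with r of 0.931 to 0.947 inside an input group, whereas KD IN against NC IN gave 0.84 to 0.855. The marker lists used next were chosen with earlier results of these data known. Their sums describe the libraries and are no independent test of identity. The NC libraries stood apart from the THP-1 label: of 20 genes that mark the embryonic kidney line HEK293, 16 had a region, and their summed level was 1650 to 1930 CPM in KD IN against 13000 to 13500 CPM in NC IN, and 1190 to 1400 CPM in KD IP against 12500 to 13700 CPM in NC IP. AKAP12, KRT18, LIN28B, MAP9 and PNMA8A of that list had 0 reads in KD IN, and none of the 16 had 0 reads in NC IN. NEFM had the largest share of that sum, with mean levels of 5480 and 2160 CPM in NC IN at its 2 regions, against 1.59 and 0.362 CPM in KD IN. Of the 25 tested regions on the list 19 were lower and 5 higher in KD IN, the higher ones in HMGA2 (2.49 ± 0.65, edgeR adjusted p = 0.0034), NEFH (1.12 ± 0.14, adjusted p = 5.2e-07) and PPL (33 reads in KD IN against 0 in NC IN in 1 region). Myeloid markers (13 of 30 with a region, among them CD68, SPI1, LYZ and ITGAM, but not CD14 or CSF1R) summed to 3460 to 3690 CPM in KD IN against 1630 to 1930 CPM in NC IN, and pan-leukocyte markers (7 of 15 with a region, not PTPRC) to 3900 to 4310 CPM in KD IN against 1690 to 1840 CPM in NC IN. These marker levels move with every KD against NC difference given here. They separate the same libraries as the hairpin does, so this design cannot tell them apart from the knockdown, and their part in the results was not tested. No region overlapped METTL1, so its level was not measured.

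The input libraries bear on the RNA level of each gene, and in bulk RNA less RNA per cell and fewer cells of a type cannot be told apart. Of the 15 tested genes, 8 had a region higher in KD IN than in NC IN, and 0 had a lower one. They were the stress kinases MAP3K5 and MAP3K11, MAP4K4, the ERK kinase MAP2K1, the JNK scaffold MAPK8IP3, MAPKAP1, and the phosphatases DUSP2 and DUSP4. By edgeR, 12 of the 32 tested member regions were higher and 0 lower (37.5%), while over all 5113 tested regions 39.8% were called, 17.9% higher and 21.9% lower. The share of members called was near that of the table, and the median log2 KD over NC was 0.60 over the members and -0.01 over all. In 13 of 32 member regions the KD IN and NC IN libraries did not overlap (44.8% of all regions).

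MAP3K5 (ASK1, which activates JNK and p38 under oxidative and other stress) had 2 tested regions, 1 at the gene start and 1 that begins 879 bases downstream (chr6:136792031-136792212). In the downstream region the 3 KD IN libraries held 56.9, 63.1 and 53.3 CPM, against 18.9, 19.0 and 18.5 CPM in NC IN. The KD libraries were all far above the NC libraries, and the region rose by 1.62 ± 0.32 on the log2 scale (SE, edgeR adjusted p = 0.00025). At the gene start the levels were 24.4, 20.1 and 44.6 CPM in KD IN and 19.9, 25.3 and 17.3 CPM in NC IN. There the libraries overlapped and the difference of 0.50 ± 0.38 did not pass the test (edgeR adjusted p = 0.32), so the change in input was called at 1 of the 2 places of the gene.

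MAP3K11 (MLK3, a JNK pathway kinase) was 94.2 ± 9.55 CPM in KD IN and 50.8 ± 6.38 CPM in NC IN (SD, n = 3 each), with no overlap of the libraries. Its log2 difference was 0.90 ± 0.20 (edgeR adjusted p = 8e-04). MAP4K4, an STE20-family kinase, was read near the 3′ end of its gene (chr2:101891606-101891817) at 204, 196 and 184 CPM in KD IN, against 127, 131 and 134 CPM in NC IN. All KD libraries lay above all NC libraries, by 0.57 ± 0.16 (edgeR adjusted p = 0.0051). MAP3K4 (MEKK4, a p38 and JNK pathway kinase) held 8.12, 12.4 and 14.1 CPM in KD IN and 6.29, 12.6 and 2.31 CPM in NC IN, which overlapped. MAP3K12 (DLK, known from neurons) had 0 reads in KD IN and 2 reads in NC IN, too few for any comparison of input.

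Among MAP2Ks, MAP2K1 (MEK1, the kinase of ERK) gave 407, 483 and 538 CPM in KD IN, against 363, 297 and 394 CPM in NC IN. The lowest KD library stood only just above the highest NC library, and the difference of 0.44 ± 0.13 passed the test (edgeR adjusted p = 0.0094). MAP2K7 (MKK7, a kinase of JNK) overlapped between the groups at both of its places: 18.9 ± 5.63 CPM in KD IN and 16.9 ± 2.53 CPM in NC IN toward the 3′ end, and 18.4 ± 9.58 CPM in KD IN and 24.6 ± 5.46 CPM in NC IN at the gene start (SD, n = 3 each).

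Of the 6 tested regions of the MAP kinases themselves, 0 were called in input by edgeR (39.8% of all regions). An unadjusted edgeR p under 0.05 was met by 0 of them (2450 of all 5113 regions). All lay in MAPK3 and MAPK14, and overlapping regions were counted separately. MAPK14 (p38 alpha) gave 24.4, 7.65 and 13.0 CPM at its gene start in KD IN, against 0, 3.79 and 15 CPM in NC IN. MAPK3 (ERK1) gave 12.2, 10.5 and 4.35 CPM at its start in KD IN, against 3.14, 5.05 and 10.4 CPM in NC IN. At their gene starts both were thinly read and the groups overlapped. The distal region of MAPK14 (chr6:36109886-36110037) was better read, with 47.7, 44.9 and 30.4 CPM in KD IN against 21.0, 36.6 and 20.8 CPM in NC IN. There too the groups overlapped, and the difference of 0.66 ± 0.34 did not pass (edgeR adjusted p = 0.12). The 6 fitted differences lay between 0.56 and 1.26.

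The scaffold MAPK8IP3 (JIP3, which binds JNK and kinesin motors) had 8.12, 34.4 and 29.4 CPM in KD IN, against 8.38, 5.05 and 8.09 CPM in NC IN, in a region across its gene start. Of the KD libraries, 1 sat among the NC libraries. The difference of 1.72 ± 0.53 passed (edgeR adjusted p = 0.011) but missed without KD IN replicate 2 (1.38, adjusted p = 0.065). A second region that overlaps it gave 12 ± 5.17 CPM in KD IN and 7.95 ± 1.56 CPM in NC IN and did not pass (0.57 ± 0.53, adjusted p = 0.42). MAPKAP1 was 108 ± 11.4 CPM in KD IN and 71.3 ± 14.9 CPM in NC IN (SD, n = 3 each), 0.60 ± 0.19 higher (edgeR adjusted p = 0.016), and missed without NC IN replicate 3 (0.49, adjusted p = 0.062). MAPKBP1, a JNK-binding protein, was 44.1 ± 9.59 CPM in KD IN and 38.1 ± 4.18 CPM in NC IN and was not called.

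Of 10 DUSPs directed at MAP kinases, 3 (DUSP2, DUSP4 and DUSP7) had a region, and 3 of their 6 tested regions were higher in KD IN (17.9% of all regions). The same place of DUSP2, listed once per condition, entered this count more than once. DUSP2 (PAC-1, a nuclear phosphatase of immune cells) held 60.9, 58.3 and 54.4 CPM in KD IN, against 23.0, 10.1 and 32.4 CPM in NC IN. The groups were well apart, by 1.38 ± 0.31 (edgeR adjusted p = 0.00077). DUSP4 (MKP-2, a nuclear phosphatase of ERK, JNK and p38) had 4 places on chromosome 8, and at the one called, chr8:29335098-29335279, it held 32.5, 28.7 and 46.8 CPM in KD IN, against 19.9, 19.0 and 3.47 CPM in NC IN. That difference was 1.34 ± 0.45 (edgeR adjusted p = 0.021) and missed without KD IN replicate 3 (1.18, adjusted p = 0.061) or NC IN replicate 3 (0.93, adjusted p = 0.087). DUSP7 (a cytoplasmic ERK phosphatase) was thin, with 8.12, 0 and 9.79 CPM in KD IN against 2.10, 5.05 and 1.16 CPM in NC IN, and was not called. DUSP1, DUSP5, DUSP6, DUSP8, DUSP9, DUSP10 and DUSP16 had no region.

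**Figure D1:**
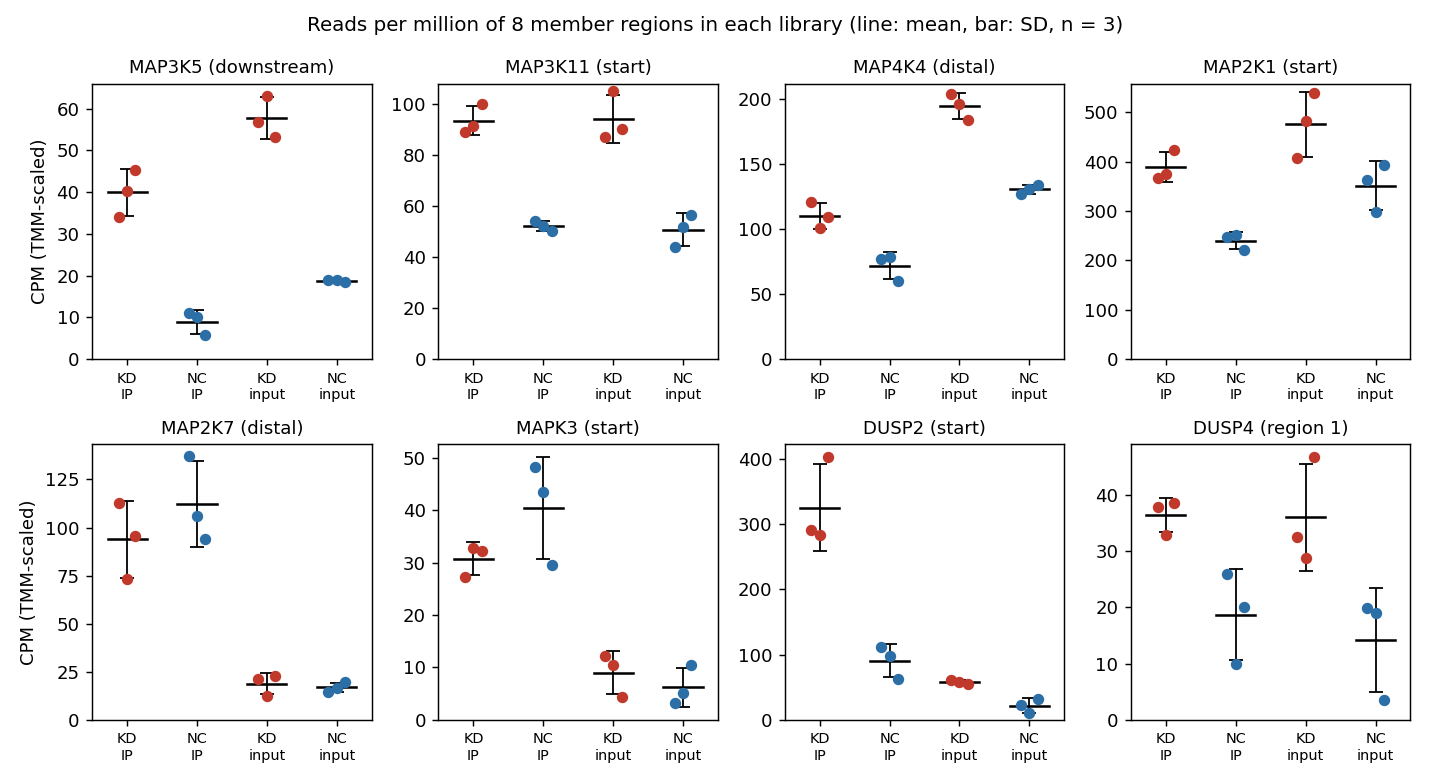
CPM (vertical axes, linear from 0) of 8 member regions in each of the 12 libraries, with the mean as a line and the SD as a bar (n = 3), KD in red and NC in blue. The KD IN points lie above all NC IN points for MAP3K5, MAP3K11, MAP4K4, MAP2K1, DUSP2 and DUSP4, and the IP points lie far above input for MAP2K7, MAPK3 and DUSP2.

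Per kilobase of region, MAP2K1 had the highest input level of the 20 locations, 2250 CPM per kb in KD IN and 1660 in NC IN. MAP4K4 came next, with 918 CPM per kb in KD IN and 617 in NC IN, and then MAPKAP1, with 511 for KD IN and 338 for NC IN. DUSP2 stood at rank 4 in KD IN and rank 8 in NC IN (323 CPM per kb in KD IN and 122 for NC IN), and the downstream region of MAP3K5 at rank 5 in KD IN and rank 9 in NC IN (317 CPM per kb in KD IN and 103 for NC IN). At its gene start MAP3K5 stood at rank 13 in KD IN and rank 12 in NC IN (65.8 CPM per kb in KD IN and 46.2 for NC IN). The order is thus one of places and not of genes. MAPK3 at its start was among the lowest, 23.8 CPM per kb in KD IN and 16.4 in NC IN, above only DUSP7 and MAP3K12. Neighbours in this order were not tested against each other.

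In the IP fraction the question is the amount of antibody-bound RNA, which follows both RNA level and modification. In this fraction 7 genes had a region higher in KD IP than in NC IP and 0 had a lower one: DUSP2, MAP3K5, MAP2K1, MAP3K11, MAP4K4, MAP3K4 and DUSP4. By edgeR 11 of 32 regions were higher (34.4%), and over all tested regions 41.0% were called, 20.9% higher and 20.1% lower. The libraries did not overlap in 20 of 32 member regions (57.9% of all regions), and the median log2 difference was 0.63 over members and 0.05 over all.

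DUSP2 held 291, 283 and 403 CPM in KD IP, against 111, 98.4 and 62.3 CPM in NC IP. Every KD library was above every NC library, by 1.84 ± 0.21 (edgeR adjusted p = 1.1e-07), beside 1.38 in input. MAP3K5 rose at both places, by 2.14 ± 0.32 downstream (edgeR adjusted p = 6e-06) and 1.55 ± 0.34 at the gene start (adjusted p = 0.00061). At its start the IP levels were 46.9, 44.3 and 62.7 CPM in KD IP, against 24.4, 11.2 and 16.4 CPM in NC IP, where input had overlapped. MAP3K4 held 17.6, 18.4 and 26.1 CPM in KD IP, against 5.30, 4.98 and 11.3 CPM in NC IP. Its difference of 1.52 ± 0.51 (edgeR adjusted p = 0.018) missed without KD IP replicate 3, NC IP replicate 1 or NC IP replicate 2, at 1.32 to 1.33 and adjusted p = 0.087 to 0.089.

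MAP2K1 was 388 ± 30.2 CPM in KD IP and 239 ± 16.8 CPM in NC IP (SD, n = 3 each), higher by 0.70 ± 0.13 (edgeR adjusted p = 8.5e-05). MAP3K11 was 93.6 ± 5.68 CPM in KD IP and 52.2 ± 1.88 CPM in NC IP, higher by 0.84 ± 0.18 (edgeR adjusted p = 5e-04), and MAP4K4 110.0 ± 10.1 CPM in KD IP and 71.7 ± 10.4 CPM in NC IP, higher by 0.61 ± 0.16 (adjusted p = 0.0026). The matching input differences were 0.44 for MAP2K1, 0.90 for MAP3K11 and 0.57 for MAP4K4. DUSP4 passed narrowly in its second place (chr8:29336145-29336356) with 32.0, 23.4 and 36.6 CPM in KD IP against 18.6, 13.7 and 17.0 CPM in NC IP, a difference of 0.89 ± 0.36 (edgeR adjusted p = 0.049). Of the 12 fits that each left out 1 library, it missed in 9 (all NC IP libraries in turn, and replicates 1 and 3 of the other groups) and in all 7 other settings, at 0.75 to 0.99 and adjusted p = 0.052 to 0.18. MAPK3 and MAP2K7 gave values below 0 at both of their places, none past the threshold. For MAPK3 these were 27.2, 32.9 and 32.3 CPM in KD IP at its start, against 48.3, 43.6 and 29.6 CPM in NC IP (-0.40 ± 0.34, edgeR adjusted p = 0.38).

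**Figure D2:**
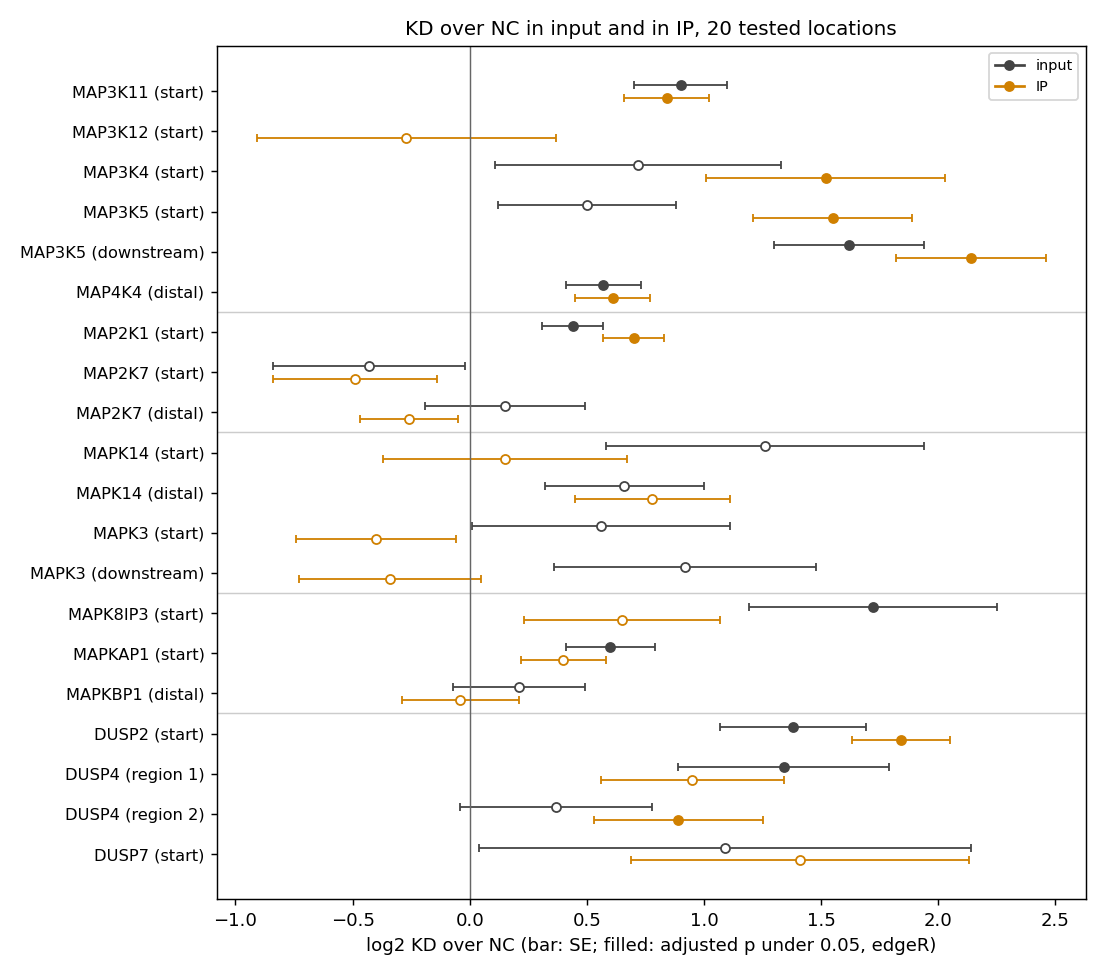
Log2 KD over NC (horizontal axis) with its SE for the 20 tested member locations, input in grey and IP in orange. Points are filled where the edgeR adjusted p is under 0.05. Start marks a midpoint in the first 10% of the gene body, except that the MAP3K5 region 879 bases downstream is marked downstream. By this rule MAP3K12 is marked start, though its region begins 1476 bases from the gene start. No filled point lies below 0, and MAP3K12 in input is left out because it had 0 and 2 reads.

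The difference of these differences, IP over input in KD against IP over input in NC, addresses a change in m7G enrichment beyond RNA level. No member was called: 0 of 32 by edgeR after adjustment (0.0% of all 5113 regions), 0 of 32 at an unadjusted p under 0.05 (11.9% of all regions) and 0 of 32 by DESeq2 (0.411% of all regions). The members nearest to the threshold, chosen after their values were seen, were MAP3K5 at its start (1.04 ± 0.51, edgeR adjusted p = 0.43), MAPK3 at 1063 bases from its start (-1.26 ± 0.68, adjusted p = 0.46) and MAPK8IP3 (-1.07 ± 0.68, adjusted p = 0.54). The median was -0.06 over members and 0.08 over all. DUSP2 gave 0.45 ± 0.38, and MAP4K4 0.04 ± 0.22. Values without 1 library ranged for MAPK3 from -2.26 to -0.90, with an adjusted p of 0.19 or more in each.

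In the authors' deposited table the same change was called for 78 of 9958 regions (0.783%), of which 1 was a member, a region of DUSP4 at chr8:29350055-29350115 with a log2 change of -10.67 and an adjusted p of 0.049. It fell under the count filter here. It held 7, 10 and 16 reads in KD IN against 0 in all NC IN libraries, which is at least 9.74-fold higher in KD IN with a floor of 3 reads over the group. In IP it held 5, 2 and 4 reads in KD IP and 4, 3 and 3 reads in NC IP. The groups overlapped in IP and not in input, and the size of the deposited change depends on the 0 reads in NC IN.

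How far each region stood out in the IP was asked within each condition. The zero of this scale is set by the TMM-scaled totals of the regions, not by the transcriptome, since only regions were counted. The median of all tested regions was 0.23 in KD and 0.13 in NC, and that of the members 0.44 in KD and 0.45 in NC. In KD, 9 of 32 member regions were higher in IP than in input and 1 was lower (31.2% called), over 4 and 1 genes. Over all regions 44.9% were called, 23.5% higher and 21.4% lower. IP and input libraries did not overlap in 17 of 32 member regions (56.6% of all). In NC, 10 were higher and 4 lower (43.8% called, 46.7% of all, 22.7% higher and 24.0% lower), with no overlap in 18 of 32 (57.8% of all). Scaling by library size alone moved the median of all regions up by 0.17 in KD and 0.29 in NC, to 11 higher and 1 lower member regions in KD and 12 and 1 in NC. Over all regions it gave 1462 higher and 835 lower in KD, against 1200 higher and 1096 lower with the TMM scaling used (trimmed mean of M-values), and 1597 higher and 778 lower in NC, against 1161 and 1228. DESeq2 gave 9 higher and 3 lower member regions in KD.

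The genes with a region called higher in the IP were the same in both conditions, DUSP2, MAP2K7 and MAPK3, and MAP3K12, which passed the count filter only through its IP libraries and had to differ. Among the 27 member regions that pass the filter on input libraries alone, 7 were higher and 1 lower in KD, and 8 were higher and 4 lower in NC. DUSP2 at its gene start held 326 ± 67.0 CPM in KD IP and 57.9 ± 3.30 CPM in KD IN (SD, n = 3 each), 2.49 ± 0.23 higher (edgeR adjusted p = 4.3e-09). In NC it held 90.7 ± 25.4 CPM in IP and 21.8 ± 11.2 CPM in input, 2.04 ± 0.28 higher (adjusted p = 1.9e-06). The region begins at the first base of the gene shown above. Per kilobase it stood at 1820 CPM per kb in KD IP and 507 in NC IP.

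MAP2K7 was enriched toward its 3′ end (chr19:7913038-7913699, 89.5% along the gene body) and not called at its start. Toward the 3′ end it held 113, 73.2 and 95.6 CPM in KD IP, against 21.3, 12.4 and 22.8 CPM in KD IN. All IP libraries lay far above all input libraries, with a log2 difference of 2.32 ± 0.27 (edgeR adjusted p = 1.4e-07). NC gave 137, 106 and 93.8 CPM in IP, against 14.7, 16.4 and 19.6 CPM in input, 2.73 ± 0.27 higher (adjusted p = 1.6e-08). At the gene start the differences were 0.44 ± 0.39 in KD and 0.49 ± 0.37 in NC (adjusted p = 0.37 and 0.29).

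MAPK3 had its IP signal at the start, from 60 bases before the gene start on. There it held 27.2, 32.9 and 32.3 CPM in KD IP, against 12.2, 10.5 and 4.35 CPM in KD IN, 1.75 ± 0.42 higher (edgeR adjusted p = 0.0015). In NC it held 48.3, 43.6 and 29.6 CPM in IP, against 3.14, 5.05 and 10.4 CPM in input, 2.70 ± 0.45 higher (adjusted p = 2.5e-05). The IP libraries were above the input libraries in both conditions, and the NC value was 3.36 without NC IN replicate 3. Its second place, 1063 bases downstream, was listed as 2 overlapping regions, 2.23 ± 0.49 (adjusted p = 0.00064) and 2.38 ± 0.50 higher in NC. In KD 1 of the 2 passed, at 1.18 ± 0.45 (adjusted p = 0.035), and the other, at 0.97 ± 0.44, did not (adjusted p = 0.076).

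MAP3K12 was nearly absent from input and present in IP. It held 25, 10 and 5 reads in KD IP against 0 in all KD IN libraries, at least 7.16-fold higher with a floor of 3 reads over the group. In NC it held 14, 18 and 12 reads in IP against 0, 1 and 1 in input, a ratio of 11.3 with a counting interval of 2.95 to 96.3. Since it was kept for its IP reads, no test is read from these values. The region lies 1476 bases from the gene start (chr12:53499500-53500063) and fell under the count filter without KD IP replicate 1 or NC IP replicate 2.

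Lower in IP than in input were MAP4K4 in both conditions, at -0.82 ± 0.15 in KD (edgeR adjusted p = 9.2e-05) and -0.86 ± 0.16 in NC (adjusted p = 0.00011), and MAP2K1 and the downstream place of MAP3K5 in NC. MAP4K4 held 121, 101 and 109 CPM in KD IP, against 204, 196 and 184 CPM in KD IN, with no overlap. MAP2K1 was -0.55 ± 0.13 in NC (adjusted p = 0.0012) and -0.29 ± 0.13 in KD (adjusted p = 0.059), and the NC value missed with scaling by library size alone (-0.26, adjusted p = 0.13). Its authors' fold enrichment was nevertheless 2.44 in the KD peak and 2.25 in the NC peak, on the peak caller's own scale. MAP3K5 downstream was -1.05 ± 0.36 in NC (adjusted p = 0.02) and -0.53 ± 0.28 in KD (adjusted p = 0.12). The NC value missed when NC IN replicate 1, NC IN replicate 2 or NC IP replicate 3 was left out, and with scaling by library size alone (-0.76, adjusted p = 0.092). The 2 places of MAP3K5 thus lay on different sides of 0 in KD, 0.80 ± 0.34 at the start (adjusted p = 0.058) and below 0 downstream, neither past the threshold.

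**Figure D3:**
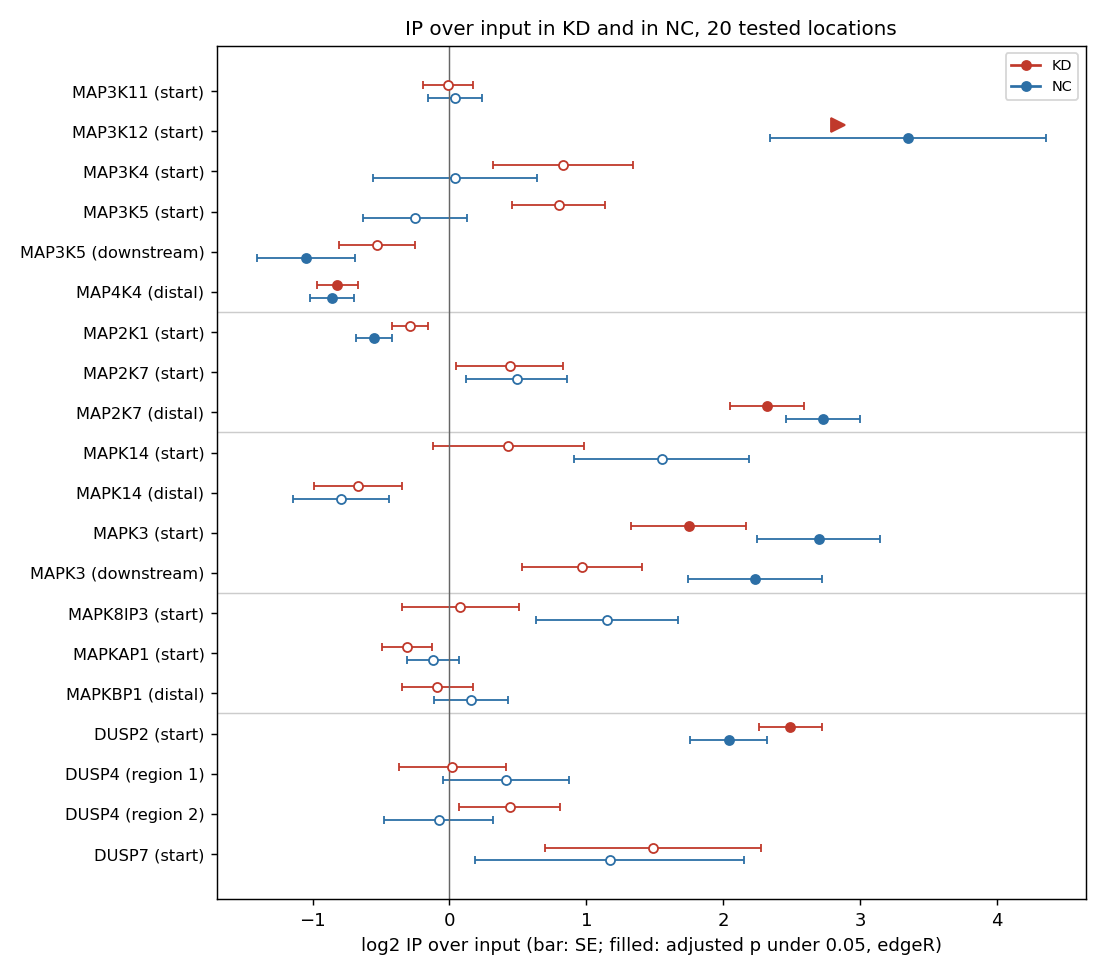
Log2 IP over input (horizontal axis) with its SE for the 20 tested member locations, KD in red and NC in blue, filled where the edgeR adjusted p is under 0.05. The triangle for MAP3K12 in KD is the lower bound of 7.16-fold, drawn on the log2 scale, its NC point rests on 2 input reads, and DUSP2, MAP2K7 (distal) and MAPK3 (start) lie to the right in both conditions.

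Across the 20 locations in 15 genes, IP over input in KD and in NC correlated at Pearson's r = 0.81 and Spearman's rho = 0.84, a description over regions of which several share a gene. The 20 include MAP3K12, kept for its IP reads, with 0 reads in KD IN and 2 in NC IN. It had the highest fitted value in both conditions, and the correlation without it was not computed. MAPK14 had its start at 0.43 ± 0.55 in KD and 1.55 ± 0.64 in NC (edgeR adjusted p = 0.54 and 0.051) and a distal region, 82078 bases from the start, at -0.67 ± 0.32 in KD and -0.79 ± 0.35 in NC (adjusted p = 0.089 and 0.071). Member regions in the first 10% of the gene body (21 tested) had a median of 0.44 in KD and 0.51 in NC, and the other 8 had 0.48 in KD and 1.19 in NC, MAP2K7 and the second place of MAPK3 among them. Overlapping regions were counted separately in these medians, and MAP2K7, MAPK3 and MAPKBP1 each entered the 8 more than once. Medians over distinct locations were not taken. Over all regions the medians in the first 10% were 0.50 in KD and 0.49 in NC, and in the rest -0.07 in KD and -0.22 in NC.

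**Figure D4:**
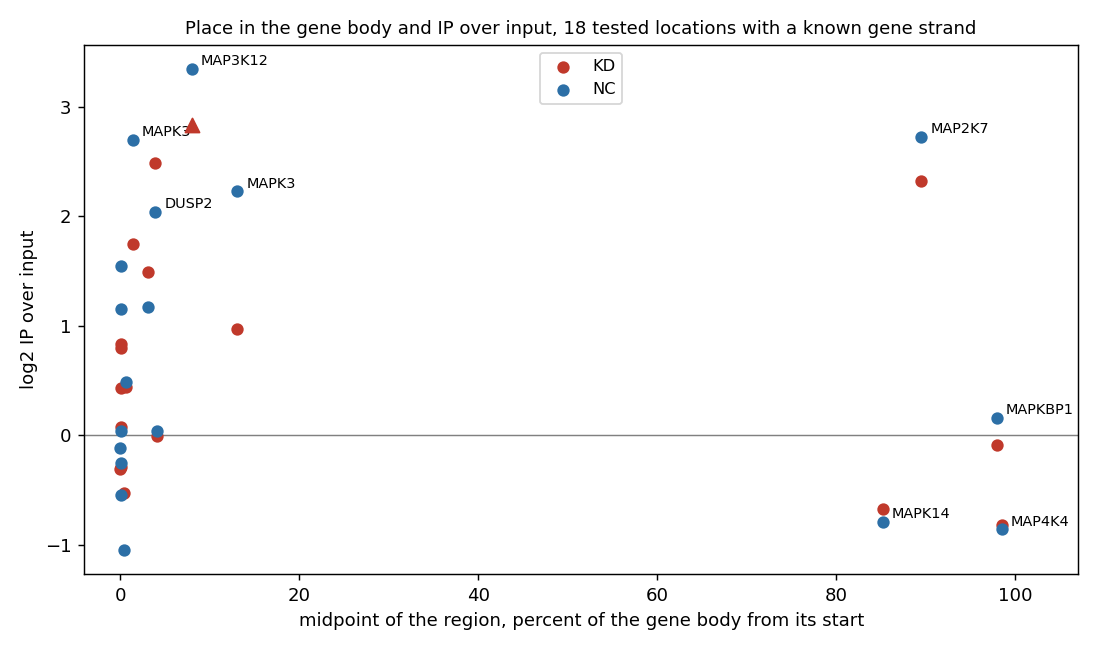
Log2 IP over input (vertical axis) against the midpoint of the region in percent of the gene body (horizontal axis) for 18 tested locations with a known gene strand, KD in red and NC in blue, with the triangle marking the lower bound for MAP3K12 in KD. High values stand at both ends of the gene, at the start for DUSP2 and MAPK3 and at 89.5% for MAP2K7.

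Peak calls alone, which the authors made per condition and not per library, gave 30 KD and 29 NC member peaks. A peak of the other set overlapped 28 of the 59 (47.5%), against 39.1% of all peaks. These were 14 of the 30 KD and 14 of the 29 NC peaks, so shared places were counted from both sides. The exact 95% interval of 34.3 to 60.9% takes the peaks as independent, which they are not. It is no test against the share of all peaks. Of the 30 genes, 15 had a peak in both sets, 9 in the KD set only (among them DUSP7, MAP3K5, MAP4K2, MAP4K4, MAPK10, MAPK6, MAPK8 and MAPK9) and 6 in the NC set only (DUSP18, MAP3K2, MAP3K21, MAPK12, MAPK1IP1L and MAPK7). MAP4K4, called in the KD set only, had a total of 366 reads in NC IP against 341 for NC IN, so the gene was read where no peak was called. The IP libraries held more reads, and the scaled means were 71.7 CPM in NC IP and 131 CPM in NC IN.

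The other 27 member regions, in 19 genes, were too thin to test. Among MAP kinases these included all regions of MAPK6 (ERK3), MAPK7 (ERK5), the JNK genes MAPK8, MAPK9 and MAPK10, MAPK12 (p38 gamma) and MAPK13 (p38 delta). MAPK13 held 11, 15 and 7 reads in KD IP, against 0, 6 and 0 in KD IN. In that region MAPK13 held 3, 5 and 10 reads in NC IP, against 3, 0 and 0 in NC IN. There the libraries overlapped, with a ratio of 3.08 and a counting interval of 0.9 to 16.3. The other of its overlapping regions held 3, 4 and 10 reads in NC IP against 0 in NC IN. That is at least 2.91-fold higher, a bound that depends on the region taken. MAPK12 had 13, 3 and 2 reads in NC IP, most of them in replicate 1, against 0 in NC IN. That is at least 3.08-fold higher with a floor of 3 reads over the group. With 0 reads in NC IN, MAPK8 had 5, 0 and 5 reads in NC IP, which overlapped, MAP3K10 had 5, 1 and 4, and MAPK1IP1L had 7, 1 and 2. These are too few for a fold that would hold without 1 library. MAP4K2, an STE20-family kinase, had no read in KD IN at either of its places. At the first (chr11:64786026-64786237) that is 0 reads in KD IN, against 6, 6 and 3 in NC IN, at least 5.65-fold lower in KD IN. At the second (chr11:64800954-64801154) it held 0 reads in KD IN, against 0, 3 and 6 in NC IN, and 4, 2 and 10 reads in KD IP, against 0 in NC IP, at least 4.93-fold higher in KD IP. DUSP18, a phosphatase outside the MAP kinase group, held 0 reads in KD IP, against 3, 7 and 9 in KD IN, in a region inside its gene, at least 11.8-fold lower in KD IP. Across its gene start 2 overlapping regions on opposite strands held 2, 9 and 0 and 2, 8 and 0 reads in KD IN, against 0 in NC IN. The libraries overlapped and 1 library held most of these reads, so no fold is given. Those regions also overlap SLC35E4, so their reads may belong to either gene.

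Other genes of the pathway, from lists chosen with earlier results of these data known, are given for the same comparisons, with examples picked after their values were seen. Of 11 tested regions of cascade kinases outside the naming rule, in BRAF, MINK1, TAOK2, TAOK3 and TNIK, 0 were called in input by edgeR (39.8% of all regions). An unadjusted edgeR p under 0.05 was met by 1 of them (2450 of all 5113 regions). TAOK3, a MAP3K, gave 0.62 ± 0.25 (adjusted p = 0.052) and TNIK, an STE20-family kinase, 1.37 ± 0.82 (adjusted p = 0.19). TAOK2, a MAP3K of p38, gave 40.7 ± 6.33 CPM in KD IN and 49.1 ± 6.64 CPM in NC IN (SD, n = 3 each) in one place and was higher in IP there, at 1.30 ± 0.20 in KD and 1.12 ± 0.20 in NC (edgeR adjusted p = 7.7e-06 and 4.3e-05). In a second place it was lower in IP, at -0.41 ± 0.15 in KD and -0.80 ± 0.15 in NC (adjusted p = 0.03 and 0.00014).

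From receptors to RAS and protein kinase C, 6 of 13 tested regions were higher in KD IN and 1 lower (53.8% called, 39.8% of all regions). The adaptor GRB2 was 254 ± 38.9 CPM in KD IN and 155 ± 18.6 CPM in NC IN (0.71 ± 0.16, edgeR adjusted p = 0.001), and PRKCB, a phorbol ester receptor of the protein kinase C family, 183 ± 24.5 CPM in KD IN and 79.2 ± 25.3 CPM in NC IN (1.22 ± 0.21, adjusted p = 6.6e-05). The adaptor GAB2 was higher in all 4 of its regions, which overlap in pairs. Those regions also overlap USP35, so their reads may belong to either gene. TAB1, a partner of the kinase TAK1, was the one lower, 5.41 ± 1.48 CPM in KD IN and 30.9 ± 1.70 CPM in NC IN (-2.49 ± 0.49, adjusted p = 0.00021).

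Among scaffolds and negative regulators outside the DUSPs, 6 of 15 tested regions were higher in KD IN and 0 lower, in PEA15, PPP2CA, SPRED2 and YWHAZ. That share, 40% called, is near the 39.8% of all regions. YWHAZ, a 14-3-3 protein that binds RAF kinases, was 148 ± 2.04 CPM in KD IN and 64.1 ± 5.28 CPM in NC IN (1.21 ± 0.15, edgeR adjusted p = 6.4e-07). SPRED3, a Sprouty-related inhibitor of RAS to ERK signalling, was not called in input but was far higher in IP, by 4.05 ± 0.29 in KD and 3.15 ± 0.27 in NC (adjusted p = 7.3e-11 and 1.7e-09).

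For substrates and transcriptional targets, 16 of 31 tested regions were higher in KD IN and 1 lower (54.8% called, 39.8% of all regions). The higher ones were in CCND1, FOSL2, JUND, MEF2C, PHLDA1, SRF and ZFP36L1, with overlapping regions counted separately. MEF2C, a p38 and ERK5 substrate, was 596 ± 47.8 CPM in KD IN and 214 ± 30.1 CPM in NC IN (1.48 ± 0.15, edgeR adjusted p = 1.9e-08), and FOSL2, an AP-1 subunit, 57.1 ± 13.6 CPM in KD IN and 25.2 ± 7.82 CPM in NC IN (1.16 ± 0.28, adjusted p = 0.0016). EGR3, an immediate early factor, was lower, 3.10 ± 1.22 CPM in KD IN and 12.4 ± 8.63 CPM in NC IN (-1.96 ± 0.75, adjusted p = 0.04). JUN was read at 993 ± 43.5 CPM in KD IN and 862 ± 21.6 CPM in NC IN and was not called in input (0.21 ± 0.11, adjusted p = 0.16). The median over the 31 regions was 1.02, beside 0.60 over the members and -0.01 over all regions. Over the leukocyte markers it was 1.15, with 14 of 16 tested regions higher, and over the myeloid markers 0.83, with 15 of 21 higher.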

How the data were processed

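The authors deposited 1 table of peak regions with raw read counts per region and library, whole numbers without normalization. For each peak the authors deposited a fold enrichment, the ratio of their peak call (the deposited score equals it), the peak's length in bases and a p-value, and for the change between the groups a deposited log2 value with p-values. The notes name fastp 0.23.4 and GRCh38, per the submitters' processing notes, and the aligner, peak caller and counter are not given in the sources used here. Regions were assigned to RefSeq gene bodies whatever the strand, and exons were not used here.

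Counts were fitted in R 4.3.3 with edgeR 4.0.16 (filterByExpr with minimum count 10 and minimum total 15, TMM scaling, quasi-likelihood test on 4 group means, all 12 libraries, two-sided). Benjamini-Hochberg adjustment ran over all 5113 tested regions, with a threshold of 0.05, and an adjusted p with no tool beside it is edgeR's. CPM used TMM-scaled totals, n = 3 libraries per group. Against 0 reads, folds are bounds, taking 3 counts per group as the floor. Ratios from 1 to 3 reads carry a 95% interval, and intervals and floors cover counting error only. DESeq2 1.42.0 and other alternatives are given in the closing section, and the fits were tested on simulated data. Named were genes past the threshold whose libraries did not overlap, the best-read region per role, regions the authors called and untested ones with at least 10 reads against 0, and further members are given to account for them. The members and lists were chosen with earlier results of these data known. Gene lists mark the HEK293 line, myeloid and pan-leukocyte cells, and 5 parts of the pathway. The regions of 1 member gene are counted but not reported here.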

Additional observations from a re-analysis of the deposited data

Results flagged for a closer look

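In 2 thinly read member regions every library of one condition moved from input to IP one way and every library of the other the opposite way, and the difference was not tested because both fell under the count filter. The region of DUSP4 at chr8:29350055-29350115 averaged 2.05 CPM in KD IP against a higher level in each KD IN library (5, 2 and 4 reads in KD IP, 7, 10 and 16 reads in KD IN), while NC IP held 4, 3 and 3 reads and NC IN 0. In the authors' deposited table it has an adjusted p of 0.049 for that change, and edgeR without a filter gave 0.079. The region of MAP4K2 at chr11:64786026-64786237 averaged 1.05 CPM in KD IP and 0 in KD IN (1, 4 and 1 reads against 0), while NC IP held 0, 3 and 3 reads and NC IN 6, 6 and 3. Its adjusted p without a filter was 0.18.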

How the results depend on the processing

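Counts of called member regions were 12 (input), 11 (IP), 0 (enrichment change), 10 (IP over input in KD) and 14 (in NC), and the largest moves came from 2 alternatives. With 1 region per overlapping cluster, which leaves fewer regions to count, they were 7 in IP, 5 for IP over input in KD and 9 in NC. Without a filter the enrichment change had 1 call, a region of MAP4K2 read in no library of KD IN or NC IP (edgeR adjusted p = 0.032), against 0 otherwise, and input had 18 calls (16 higher, 2 lower), IP 12, and IP over input 15 and 18. The share of member peaks shared between the sets was 30.3% when only the 50% with the higher authors' fold were kept. Partner peaks were limited in the same way, so a peak whose partner was not kept counted as not shared. The cause was otherwise not tested, and the share of all peaks in that setting was not taken. Leaving out 1 library gave 11 to 14 (input), 9 to 11 (IP), 0 to 0 (enrichment change), 8 to 14 (IP over input in KD) and 12 to 17 (in NC). With the replicate block the counts were 12, 10, 0, 13 and 15, so every count stayed within 1.5 times. Deviations of IP and input with the same number correlated at r = -0.019 to 0.068, and with different numbers at -0.064 to 0.045. Those of KD and NC correlated at -0.088 to 0.054 with the same number and at -0.114 to 0.126 with different numbers. Such small values cannot show whether libraries of the same number came from 1 RNA sample, and the labels give only the number. Over 30 named region and comparison pairs, 535 of 565 values kept direction and side of the threshold, 30 missed it and 0 reversed. Depth limits the 27 untested regions and the enrichment change, whose SE ran from 0.18 for MAP2K1 to 2.19 for MAP3K12.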
